A study of Mus musculus with 21 samples.

Results

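Notochord progenitor-like cells made in culture from mouse embryonic stem cells (NotoPdiff) were set against notochord cells sorted from the trunk of mouse embryos at E8.5 and at E9.5. Levels were FPKM values, that is, fragment numbers divided by transcript length and by the mapped reads of the library. A gene was a member when its ratio, log2 of (FPKM + 1) over (FPKM + 1), lay at least 3-fold above or at least 3-fold below both trunk libraries. Genes entered when they reached 5 FPKM in NotoPdiff or in both trunk libraries. Of 23983 genes, 8805 met this minimum and 502 were members. NotoPdiff was higher for 288 genes (3.27% of the genes that met the minimum) and lower for 214 (2.43%). These shares come from the rule itself and carry no test, because every condition was 1 RNA-seq library.

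NotoPdiff cells came from F1G4 (C57BL/6N x SV129) embryonic stem cells carrying TRE::Foxa2-IRES-EGFP at the Rosa26 locus, the BAC T::H2B-mCherry-T2A-irTA and the BAC Noto::H2B-mTurquoise. They received bFGF, then the Wnt pathway agonist CHIR99021 together with doxycycline, which turns on the Foxa2 transgene in cells that express T, and were sorted as Noto+/T+. Trunk notochord was sorted as T+/Noto+/Foxa2+ from embryos made by tetraploid complementation from another F1G4 line, with the BACs T::H2B-Venus, Noto::H2B-mCherry and Foxa2::H2B-mTurquoise, at Theiler stage TS12 for E8.5 and TS16 for E9.5. The study's text describes diploid aggregation for these embryos, and the sample labels are followed here. Cells from several embryos were pooled. Notochord progenitors (NotoPs) with the same 3 reporters were sorted from the caudal ends of such embryos, and mesoderm progenitors (MPs), T+ but Noto- and Foxa2-, came from the same caudal ends. Cultured MPs (MPdiff) and cultured neuro-mesodermal progenitors (NMPdiff) came from the NotoPdiff cell line, were grown with bFGF and CHIR99021 without doxycycline, and were sorted as T+/Noto-, NMPdiff from an earlier day. The cultured libraries were sequenced on another instrument than the embryonic ones, so culture, cell line and instrument cannot be told apart. Foxa2 values in NotoPdiff do not separate the transgene from the endogenous gene.

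The embryonic NotoP libraries split the 502 genes. A gene was called shared when NotoPs differed from trunk notochord of the same stage by at least 2-fold in the same direction at both stages. It was called not shared when NotoPs did not reach 2-fold in that direction at either stage, so that the difference from trunk was seen in culture and not in embryonic progenitors. In a shared difference, maturity, axial level, other cells in a sort and library input cannot be told apart. In 10 of the higher and 6 of the lower genes called not shared, a NotoP library was at least 2-fold from trunk in the opposite direction. Of the higher genes, 123 were shared, 91 were not shared and 74 were shared at 1 stage. Of the lower genes, 128 were shared, 33 were not shared and 53 were shared at 1 stage. Across all 8805 genes, NotoPs were 2-fold higher than trunk at both stages for 4.01% and 2-fold lower for 4.19%. The ratios of NotoPdiff and of NotoPs used the same trunk libraries, so an unusual trunk value moves both. Sharing above these shares is therefore partly built in, and how far was not tested. Of the 123 higher shared genes, 39 were listed at 0 in both trunk libraries and 29 in 1 of them. In the median, NotoPdiff then lay near NotoPs for shared genes. The log2 ratios to NotoPs had medians of 0.21 at E8.5 and 0.52 at E9.5 for higher genes and -0.19 and -0.27 for lower genes. For genes not shared the medians were 3.01 and 3.01, and -2.10 and -2.14. The rule favours this order of the classes but sets no limit for a single gene. Shared genes could lie far from NotoPs, as Shh does below. The genes closest to the 3-fold limit were Foxb1 and Psmb5 just inside (smaller ratios of 1.59 on the log2 scale) and Trp53inp1 and Grk4 just outside (1.58) on the higher side. On the lower side they were Ispd and Kank1 inside (1.60) and Ptpru and Dock8 outside (1.57).

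**Figure D1:**
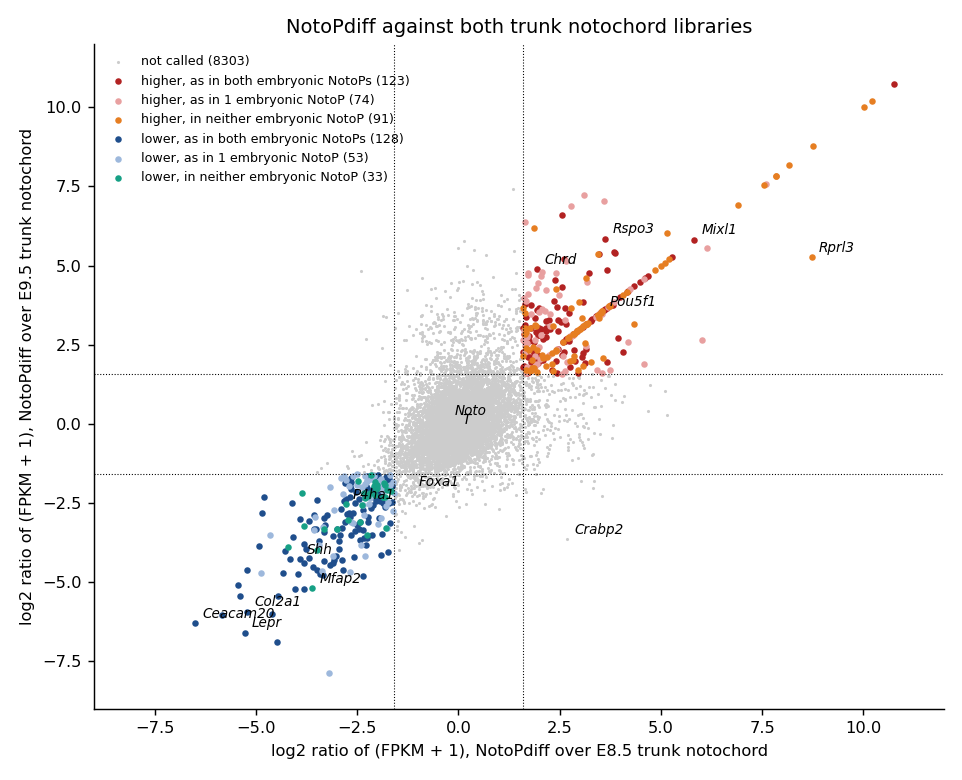
Each point is 1 of the 8805 genes that met the FPKM minimum, with the log2 ratio of (FPKM + 1) of NotoPdiff over E8.5 trunk notochord on the x axis and over E9.5 trunk notochord on the y axis. Dotted lines mark 3-fold; colors mark the classes, the 288 higher genes lie at upper right and the 214 lower genes at lower left, and genes listed at 0 in both trunk libraries fall on the diagonal. Rn45s lies outside the axes and is not drawn.

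The libraries differed in ways that touch these counts. Trunk libraries were made from fewer cells than the NotoP libraries, and 48.9% and 51.7% of all genes were listed at 0 in them against 33.4% in NotoPdiff. A 0 in such a table can be a failed estimate: of the genes at 5 FPKM or more in the other 4 notochord lineage libraries, 22 of 6235 were listed at 0 in E8.5 trunk and 76 of 6424 in E9.5 trunk, against 3 of 6048 in NotoPdiff. Among the 288 higher genes, 93 were listed at 0 in both trunk libraries and 75 in 1 of them, so no ratio is given for these against a 0. Small RNA genes made up 0.924% to 1.59% of summed FPKM in the 6 embryonic libraries and 5.26% to 7.43% in the 3 cultured ones. Their part in the results was tested only by leaving them out, which left 241 higher and 207 lower genes when histone genes and Rn45s were left out too. The split also depended on scaling. Each library was scaled to the same upper quartile of FPKM, taken over its genes listed above 0 and thus over unlike sets of genes. This moved the median of all genes by 0.44 and 0.55 on the log2 scale against E8.5 and E9.5 trunk. Then 572 genes were higher and 135 lower, so that 80.9% of called genes were higher against 57.4% in the deposited scale. Median-of-ratios scaling used 8896 genes at 1 FPKM or more in all notochord lineage libraries. It moved the median by 0.02 and 0.02 and gave 293 higher and 210 lower genes.

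The notochord is the midline rod of the early embryo. Its progenitors sit at the caudal end beside those of the paraxial mesoderm, under Wnt and Fgf signals, and depend on T and Foxa2, with Noto as a downstream homeobox factor. As the rod matures it secretes Shh, which patterns the neural tube and somites, and builds a sheath of cartilage-type collagens and proteoglycans under the control of Sox9, Sox5 and Sox6.

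The factors that define the sorted cells were near trunk levels in NotoPdiff. T, the T-box factor of nascent mesoderm and notochord, was at 398 FPKM in E8.5 trunk, 424 in E9.5 trunk, 909 and 744 in E8.5 and E9.5 NotoPs, and 375 in NotoPdiff (log2 ratios to trunk of -0.09 and -0.18). Noto was at 27.5 and 20.8 in trunk, 152 and 164 in NotoPs and 22.5 in NotoPdiff (-0.27 and 0.11). NotoPdiff thus held both genes at the level of the trunk libraries and below that of the NotoPs, and both were used for sorting. The small negative ratios of T and Noto became positive after upper-quartile scaling. Foxa2, a forkhead factor, was at 71.2 and 35.6 in trunk, 57.0 and 45.6 in NotoPs and 95.5 in NotoPdiff, which includes the transgene. Foxa1, its paralogue, was at 44.2 and 88.0 in trunk, 41.7 and 44.3 in NotoPs and 19.2 in NotoPdiff (-1.16 and -2.14). Sox9 was at 74.8 and 92.9 in trunk, 51.9 and 30.0 in NotoPs and 47.1 in NotoPdiff (-0.66 and -0.97). The Bmp antagonist Nog was at 77.8 and 48.2 in trunk, 75.1 and 37.2 in NotoPs and 40.1 in NotoPdiff (-0.94 and -0.26; the ratio to E9.5 trunk became positive after upper-quartile scaling). None of these 6 genes was a member. All were below 2 FPKM in MPdiff apart from T, which was at 25.8. In NMPdiff T was at 406, above NotoPdiff, and Foxa2 at 12.5, while the others were below 2 FPKM. The trunk-like level of T was thus not particular to NotoPdiff among the cultures. Of 10 notochord transcription factors that met the minimum, 1 was higher (Foxj1) and 2 lower (Sox5 and Sox6).

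**Figure D2:**
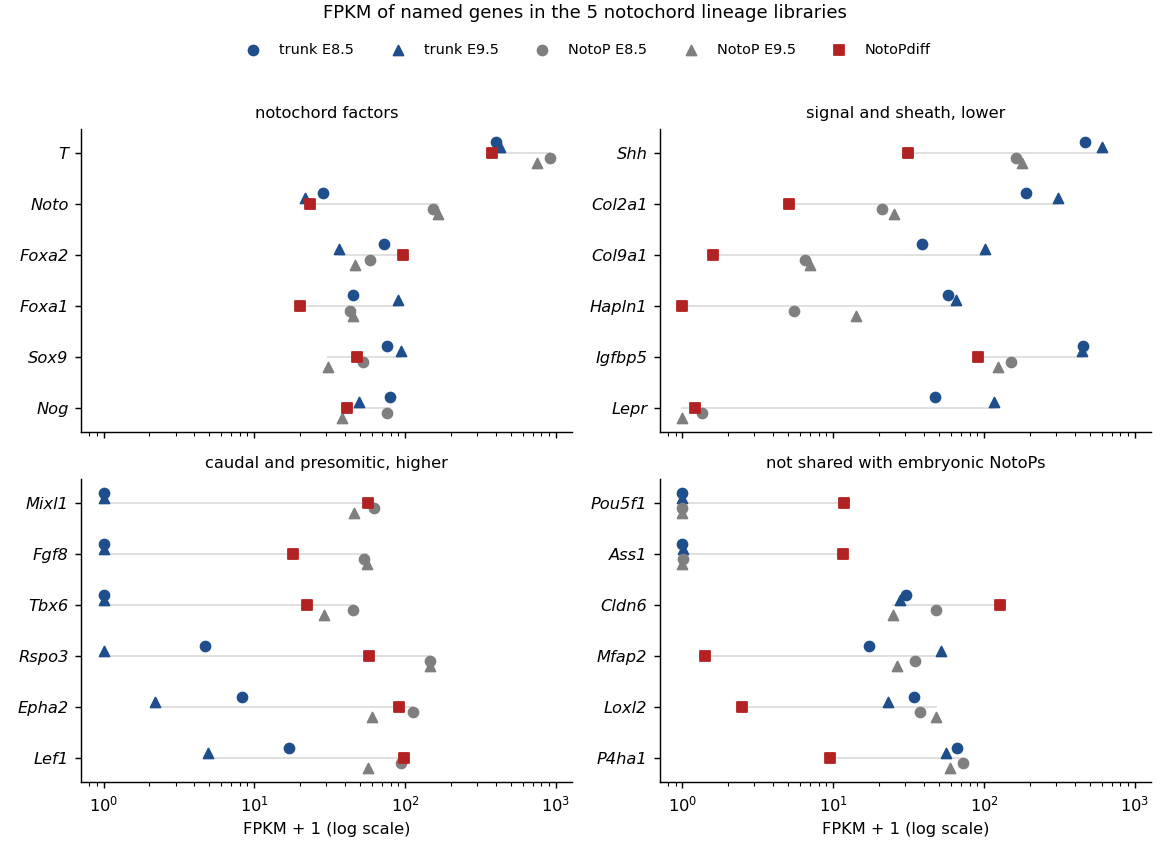
FPKM + 1 on a log scale for 24 named genes in the 5 notochord lineage libraries, with 1 point per library (circles E8.5, triangles E9.5, squares NotoPdiff). T and Noto of NotoPdiff sit at the trunk levels, the signal and sheath genes sit below trunk in NotoPdiff and mostly in NotoPs, the caudal genes are high in NotoPs and NotoPdiff, and in the last panel NotoPdiff stands apart from all 4 embryonic libraries.

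Shh, the signal the mature notochord is known for, was lower in NotoPdiff. It was at 468 FPKM in E8.5 trunk, 607 in E9.5 trunk, 161 and 178 in NotoPs and 30.2 in NotoPdiff, a log2 ratio of -3.91 against E8.5 trunk and -4.28 against E9.5 trunk. NotoPdiff was thus also below both NotoP libraries, while Shh was listed at 0 in NMPdiff and MPdiff. Genes that read out Hedgehog signalling stood nearer to trunk. Its receptor Ptch1 was at 189 and 136 in trunk, 150 and 86.0 in NotoPs, 112 in NotoPdiff and 23.0 in MPdiff. The target and effector Gli1 was at 19.2 and 24.7 in trunk, 23.2 and 16.9 in NotoPs, 12.4 in NotoPdiff and 1.82 in MPdiff. Of the 7 Hedgehog response genes that met the minimum 0 were higher and 1 lower, the coreceptor Cdon, with a list median of -0.51 (0.02 after upper-quartile scaling) against 0.05 over all genes, taking for each gene the mean of its ratios to both trunk libraries. Cdon too fell under 3-fold after that scaling. Ptch1 and Gli1 were named after their values were seen.

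Further signals differed in both directions. The Bmp and Wnt antagonist Sostdc1 was at 27.6 and 55.7 FPKM in trunk, 2.69 and 0.368 in NotoPs and 0.306 in NotoPdiff (-4.45 and -5.44). The axon repellent Slit2 was at 175 and 398 in trunk, 119 and 141 in NotoPs and 43.4 in NotoPdiff (-1.98 and -3.17). Both were lower than in trunk, Sostdc1 as in NotoPs. The Bmp antagonist Chrd went the other way, at 6.72 in E8.5 trunk and listed at 0 in E9.5 trunk, 37.1 and 10.6 in NotoPs and 28.5 in NotoPdiff. Of the 10 notochord signals that met the minimum, 1 was higher and 3 lower, with a median of -0.50. That median became 0.02 when libraries were scaled to the same upper quartile of FPKM, so it carries no direction.

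Most collagen and sheath genes were lower in NotoPdiff and in NotoPs. Of 15 collagen and sheath matrix genes that met the minimum, 11 were lower, all 11 of them shared with NotoPs, and 0 were higher. The list median was -2.97 (-2.65 over the 14 genes listed above 0) against 0.05 over all genes, and NotoPs had -2.66 against 0.02. Col2a1, the main fibrillar collagen of the sheath and cartilage, was at 188 FPKM in E8.5 trunk, 308 in E9.5 trunk, 20.0 and 24.2 in NotoPs and 4.05 in NotoPdiff (-5.22 and -5.94). Col9a1, which coats such fibrils, was at 37.6 and 101 in trunk, 5.48 and 6.03 in NotoPs and 0.597 in NotoPdiff (-4.60 and -5.99). Col11a1, which sets fibril diameter, was at 32.0 and 74.5 in trunk, 1.3 and 2.30 in NotoPs and 1.02 in NotoPdiff (-4.03 and -5.22). All 3 were higher in E9.5 than in E8.5 trunk and lowest in NotoPdiff among these 5 libraries. Hapln1, which links hyaluronan to proteoglycans, was at 56.6 and 64.4 in trunk and 4.48 and 13.2 in NotoPs, and it was listed at 0 in NotoPdiff. The proteoglycan core Acan was at 10.5 and 14.5 in trunk, 0.256 and 0.0876 in NotoPs and 0.331 in NotoPdiff.

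The 2 Sox factors that act with Sox9 on these genes were lower too. Sox5 was at 10.6 and 13.7 FPKM in trunk, 1.73 and 4.13 in NotoPs and 0.454 in NotoPdiff (-2.99 and -3.33). Sox6 was at 21.6 and 39.8 in trunk, 9.75 and 7.25 in NotoPs and 3.13 in NotoPdiff (-2.45 and -3.31). Sox9 itself was within 3-fold of both trunk libraries. Basement membrane genes, in contrast, were mostly near trunk: of 12 that met the minimum 1 was lower (Fras1) and 0 higher, with a median of -0.27 that became 0.23 after upper-quartile scaling.

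Ranked by the smaller of their ratios to the trunk libraries, the leading 6 lower shared genes included Col2a1 and Hapln1. The adhesion protein Ceacam20 was at 89.6 and 78.0 FPKM in trunk, 16.6 and 20.0 in NotoPs and listed at 0 in all 3 cultured libraries. It was at 130 in E8.5 MPs, above both trunk libraries, and at 3.47 in E9.5 MPs. The secreted phosphoprotein Spp1 was at 44.9 and 46.9 in trunk, 0.664 and 0.453 in NotoPs and 0.101 in NotoPdiff (-5.38 and -5.44). The leptin receptor Lepr was at 46.0 and 116 in trunk, 0.340 and 0 in NotoPs and 0.211 in NotoPdiff (-5.28 and -6.59). Spp1 and Lepr were thus below 1 FPKM in progenitors of embryo and culture alike. The transglutaminase Tgm2, which cross-links matrix proteins, was at 88.0 and 68.3 in trunk, 5.58 and 10.5 in NotoPs and 1.04 in NotoPdiff (-5.45 and -5.08).

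In the NotoPdiff cultures 22.5% of all placed genes had both a T and a Foxa2 summit within 50 kb of their start sites. Of the 125 lower shared genes that could be placed, 44 did (35.2%). The DNA at the strongest Foxa2 summit near 2 of them, Shh and Tgm2, is printed as an example of bound sequence. The windows are 151 bases of the plus strand of GRCm38, centred on the summit. Capitals mark forkhead words, which were TGTTTAC and the spelling TGTTTGC together with the spelling TATTTAC and lastly the spelling TATTTGC, and T-box words, which were spelled GGTGTNA. Both strands were searched. The Shh window, chr5:28459422-28459572, lies in an intron of Shh that 9530036O11Rik overlaps, 7759 bp from the start site, with a fold enrichment of 7.73 and a T summit 124 bp away. It holds 2 forkhead words. The Tgm2 window, chr2:158153866-158154016, lies between genes, 7505 bp from the start site, with a fold enrichment of 17.3 and a T summit 1 bp away, and holds 2 forkhead words.
Shh: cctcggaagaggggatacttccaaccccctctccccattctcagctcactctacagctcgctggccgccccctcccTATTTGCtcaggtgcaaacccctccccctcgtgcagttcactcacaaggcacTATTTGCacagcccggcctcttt
Tgm2: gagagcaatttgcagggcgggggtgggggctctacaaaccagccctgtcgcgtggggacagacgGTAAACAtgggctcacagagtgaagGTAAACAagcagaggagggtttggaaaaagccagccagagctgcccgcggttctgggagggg
No T or Foxa2 summit lay within 50 kb of the start sites of Col2a1, Lepr or Ceacam20. The genes shown were chosen after their values and peaks were seen.

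Growth regulators and imprinted genes were also among the lower shared genes. Igfbp5, which binds insulin-like growth factors, was at 455 and 445 FPKM in trunk, 151 and 122 in NotoPs and 90.5 in NotoPdiff (-2.32 and -2.28). The protease Htra1 was at 68.0 and 72.3 in trunk, 11.1 and 1.90 in NotoPs and 5.87 in NotoPdiff (-3.33 and -3.41). Igfbp3 was higher, at 9.01 and 0.973 in trunk, 7.34 and 6.86 in NotoPs and 29.8 in NotoPdiff (1.62 and 3.96). Of 9 genes of this axis 1 was thus higher and 2 lower. Of 23 imprinted genes that met the minimum 5 were lower (3 after upper-quartile scaling), 4 of them shared, and 0 higher, with a median of -0.94 against -0.51 in NotoPs. Mest, a hydrolase-like protein of mesoderm, was at 88.0 and 221 in trunk, 29.6 and 18.6 in NotoPs and 9.48 in NotoPdiff (-3.09 and -4.40). Dlk1, a Notch ligand-like membrane protein, was at 9.46 and 29.6 in trunk, 3.15 and 9.77 in NotoPs and 1.14 in NotoPdiff (-2.29 and -3.84). Peg3, a zinc finger gene, was at 211 and 180 in trunk, 21.9 and 32.6 in NotoPs and 43.1 in NotoPdiff (-2.26 and -2.04). Peg3 was at 166 in NMPdiff and 172 in MPdiff, so its lower level was not common to the 3 cultures. Peg3 and Zim1 lie in an overlapping cluster, and their reads may be hard to separate.

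Guidance genes were called in both directions. Of 22 guidance genes 5 were lower (3 after upper-quartile scaling) and 1 higher, with a median of -0.65. The semaphorin receptor Nrp1 was at 24.5 and 18.9 FPKM in trunk, 2.07 and 3.59 in NotoPs and 1.54 in NotoPdiff (-3.33 and -2.97). The ephrin receptor Epha2, a gene of the node and its progenitors, was the higher one, at 7.27 and 1.21 in trunk, 112 and 58.8 in NotoPs and 90.3 in NotoPdiff (3.46 and 5.37). Id2, an inhibitor of helix-loop-helix factors that responds to Bmp, was at 55.3 and 59.8 in trunk, 17.8 and 9.62 in NotoPs and 2.14 in NotoPdiff (-4.16 and -4.27), whereas MPdiff had 64.6.

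Among the 123 higher shared genes were 8 of the streak and caudal progenitor list and 7 of the presomitic list. Of 9 presomitic and Notch genes that met the minimum 7 were higher, all 7 shared with NotoPs. Their list median was 3.61 against 0.05 over all genes (NotoPs 4.57 against 0.02), but 6 of the 9 were listed at 0 in a library the ratio used, and the 3 listed above 0 had a median of 1.72. When only genes above 0 were kept, 1 presomitic gene was called. Tbx6, the T-box factor of paraxial mesoderm, was listed at 0 in both trunk libraries and was at 44.0 and 27.8 FPKM in NotoPs, 21.3 in NotoPdiff and 33.2 in MPdiff. Msgn1, a bHLH factor of presomitic mesoderm, was listed at 0 in both trunk libraries and was at 20.0 and 46.6 in NotoPs, 11.2 in NotoPdiff and 25.1 in MPdiff. The Notch ligand Dll1 was at 1.92 in E8.5 trunk, listed at 0 in E9.5 trunk, and at 51.7 and 30.4 in NotoPs and 41.5 in NotoPdiff. All 3 genes were thus present in NotoPs as well as NotoPdiff and at or near 0 in trunk. The Wnt agonist Rspo3 was at 3.67 in E8.5 trunk, listed at 0 in E9.5 trunk, and at 146 and 144 in NotoPs and 56.5 in NotoPdiff. The summed FPKM of 8 paraxial progenitor markers was 40.1 and 18.5 in trunk, 385 and 316 in NotoPs and 185 in NotoPdiff, and 6 of the 7 that met the minimum were higher (0 when only genes above 0 were kept). In sorted bulk samples, more cells of a kind and more RNA per cell cannot be told apart.

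Of 12 streak and caudal progenitor genes 9 were higher, 8 of them shared, and 0 lower, with a median of 2.89 (1.12 over the 5 genes listed above 0, of which 2 were called). Mixl1, a homeobox gene of the streak, was listed at 0 in both trunk libraries and was at 61.0 and 44.7 FPKM in NotoPs, 55.3 in NotoPdiff and 214 in NMPdiff. Fgf8 was listed at 0 in both trunk libraries and was at 52.6 and 54.4 in NotoPs and 17.0 in NotoPdiff. The caudal factor Cdx1 was at 1.26 in E8.5 trunk, listed at 0 in E9.5 trunk, and at 17.8 and 1.47 in NotoPs and 27.8 in NotoPdiff. The zinc finger factor Sp8 was at 1.96 in E8.5 trunk, listed at 0 in E9.5 trunk, and at 29.7 and 18.7 in NotoPs and 26.5 in NotoPdiff. The exception to sharing was Nkx1-2, a homeobox gene of caudal neuro-mesodermal progenitors, at 0 and 1.25 in trunk, 0.496 and 0.338 in NotoPs, 19.2 in NotoPdiff and 41.5 in NMPdiff.

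Wnt and Fgf targets stood higher as well, and here most members were above 0 in trunk. Of 12 Wnt and beta-catenin targets 5 were higher, all shared, and 1 was lower (Myc), with a median of 1.52 (NotoPs 1.70, all genes 0.05). Axin2, the feedback inhibitor of the pathway, was at 9.30 and 8.37 FPKM in trunk, 24.4 and 24.8 in NotoPs, 40.3 in NotoPdiff and 61.5 in MPdiff (2.00 and 2.14). The nuclear partner of beta-catenin Lef1 was at 15.9 and 3.90 in trunk, 92.2 and 55.6 in NotoPs and 97.4 in NotoPdiff (2.54 and 4.33). Both genes were higher than trunk in NotoPs and in NotoPdiff; the part of the Wnt agonist that the cultures received was not tested. Of 11 Fgf feedback genes 4 were higher, all shared, with a median of 1.44. Il17rd, an inhibitor of Fgf receptor signalling, was at 4.82 and 5.21 in trunk, 61.6 and 51.7 in NotoPs and 37.4 in NotoPdiff (2.72 and 2.63). The Ets factor Etv5, a target of Fgf signalling, was at 7.48 and 3.11 in trunk, 28.9 and 20.6 in NotoPs and 38.8 in NotoPdiff (2.23 and 3.28). Myc, at 32.1 and 18.8 in trunk and 4.12 in NotoPdiff (-2.69 and -1.95), fell under 3-fold after upper-quartile scaling.

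Of 7 left-right genes 3 were higher, 2 of them shared, and 1 was lower; all 3 higher ones were listed at 0 in a trunk library. Nodal, the left-side signal made first around the node, was listed at 0 in both trunk libraries and was at 8.56 and 1.54 FPKM in NotoPs and 24.5 in NotoPdiff. Its antagonist Dand5 was listed at 0 in both trunk libraries and was at 9.53 and 5.29 in NotoPs and 19.3 in NotoPdiff. Both were higher in NotoPdiff than in either NotoP library, and both were near 1 in MPdiff (1.64 and 0.901). In NMPdiff Nodal was at 18.1 and Dand5 at 0.905. Foxj1, the master factor of motile cilia, was at 1.71 and 0 in trunk, 4.76 and 0 in NotoPs and 10.9 in NotoPdiff, but of 5 cilium genes that met the minimum only Foxj1 was higher. The lower gene, Gdf1, a ligand that acts with Nodal, was at 7.84 and 23.9 in trunk, 21.8 and 14.9 in NotoPs and 1.54 in NotoPdiff.

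The other leading higher shared genes by the same rule were Lmo2 and Atox1. Lmo2, a LIM adaptor of blood and vessel progenitors, was listed at 0 in both trunk libraries and was at 21.2 and 22.7 FPKM in NotoPs and 23.3 in NotoPdiff. Atox1, a copper chaperone, was listed at 0 in both trunk libraries and was at 2.15 and 17.6 in NotoPs and 17.3 in NotoPdiff. Summed blood markers were at 2.27 and 1.23 FPKM in trunk and 0.614 in NotoPdiff and were listed at 0 in NotoPs, so the blood markers were not higher beside Lmo2. Summed endothelial markers were at 6.31 and 1.67 in trunk, 13.5 and 7.35 in NotoPs and 5.88 in NotoPdiff, so in NotoPs they were above trunk. No marker of either list met the FPKM minimum, and the part of such cells was not tested.

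The strongest summits near 3 of the higher shared genes are printed in the same form. The Msgn1 window (T), chr12:11209093-11209243, lies between genes 196 bp from the start site, with a fold enrichment of 23.4, and holds 1 T-box word. The Fgf8 window (T), chr19:45722978-45723128, lies between genes 19631 bp from the start site, with a fold enrichment of 28.7, and holds neither word. The Chrd window (Foxa2), chr16:20729980-20730130, lies in an intron of Thpo 3072 bp from the start site of Chrd, with a fold enrichment of 11.8 and a T summit 94 bp away, and holds neither word.
Msgn1: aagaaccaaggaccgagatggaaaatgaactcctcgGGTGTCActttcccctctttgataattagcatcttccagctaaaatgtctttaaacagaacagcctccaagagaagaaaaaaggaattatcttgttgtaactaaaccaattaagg
Fgf8: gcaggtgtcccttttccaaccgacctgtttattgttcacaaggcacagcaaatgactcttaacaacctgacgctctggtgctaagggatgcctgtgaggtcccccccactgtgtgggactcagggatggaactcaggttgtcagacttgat
Chrd: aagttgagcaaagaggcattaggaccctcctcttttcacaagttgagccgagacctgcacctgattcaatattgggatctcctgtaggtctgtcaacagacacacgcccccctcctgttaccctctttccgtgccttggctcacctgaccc
In windows of the same length, the T-box word was in 20.9% of 6871 T summits, 5.78% of 22680 Foxa2 summits and 4.98% of 27025 promoters. A forkhead word was in 27.2%, 37.8% and 6.22%. A match is a description of these letters, and no match says only that these spellings are not in the window.

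**Figure D3:**
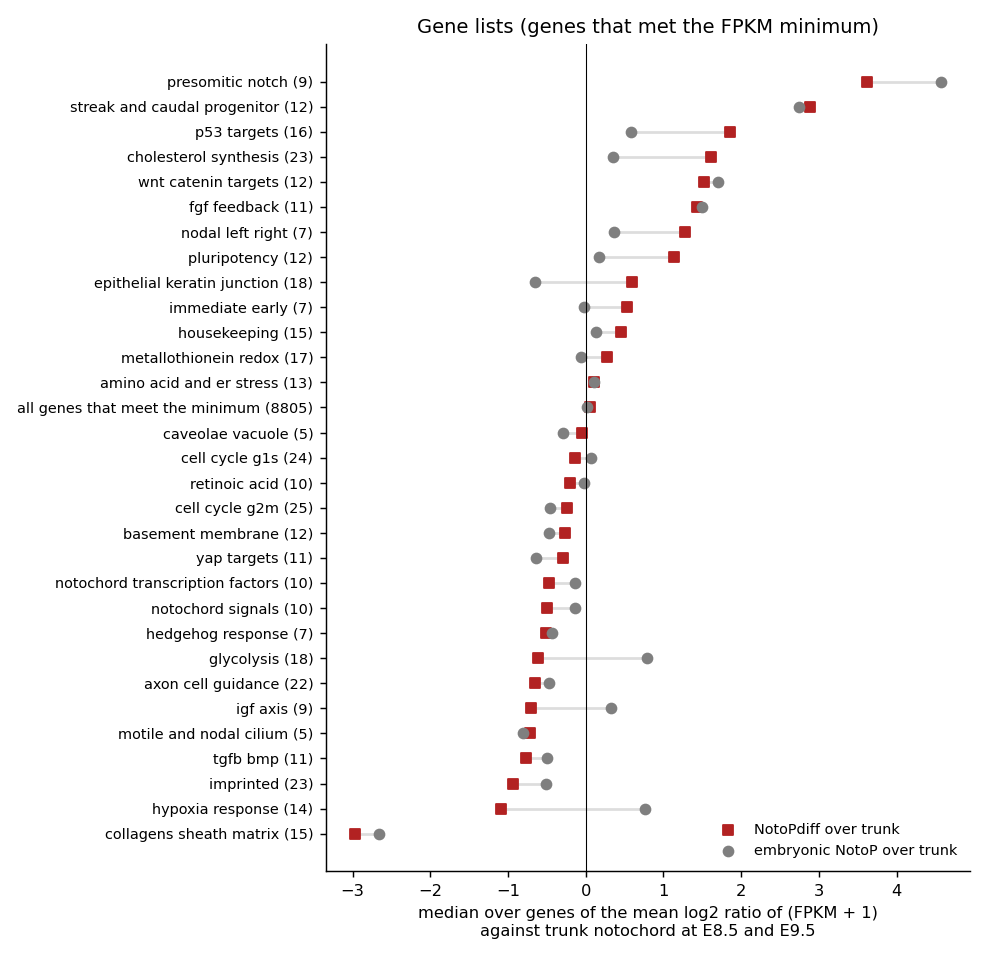
Median over the genes of each list of the mean log2 ratio of (FPKM + 1) to both trunk libraries, for NotoPdiff (squares) and for embryonic NotoPs of the same stage (circles), with the number of genes that met the minimum in brackets. The collagen list lies at -2.97 and -2.66 and the presomitic list at 3.61 and 4.57, whereas the p53 and cholesterol lists lie above 1.5 for NotoPdiff and below 1 for NotoPs, and the hypoxia and glycolysis lists lie below 0 for NotoPdiff and above 0 for NotoPs.

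Genes that were higher in NotoPdiff but not in NotoPs formed other groups. A measure that the rule did not use was set beside them, cultured MPs against embryonic MPs. It repeats the step from embryo to culture in another cell type, again with the cell line and instrument of the cultures. MPdiff was 2-fold higher than both embryonic MP libraries for 4.13% of the 8805 genes. It was so for 62 of the 91 higher genes not shared with NotoPs (68.1%), for 28 of the 74 shared at 1 stage (37.8%) and for 18 of the 123 shared genes (14.6%). Without small RNA genes the counts were 28 of 55 (50.9%), 22 of 67 (32.8%) and 15 of 120 (12.5%). In the other direction MPdiff was 2-fold lower for 2.18% of all genes, for 13 of the 33 lower genes not shared (39.4%), for 8 of 53 shared at 1 stage (15.1%) and for 9 of 128 shared genes (7.03%). The share in MPdiff was higher for genes not shared than for shared genes in both directions. NotoPs, which set these classes, came from the same caudal ends as the MPs, so this order is partly built into the classes. In the E8.5 MP library 58.1% of all genes were listed at 0. Of the 91 higher genes not shared, 40 were listed at 0 in both trunk libraries and 36 in all 4 embryonic notochord libraries. The class rule favours such zeros, and their share over all genes was not computed. With 1 library per condition no test was made of these differences.

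Pou5f1, the pluripotency factor, was listed at 0 in all 4 embryonic notochord libraries and was at 269 FPKM in NMPdiff, 10.7 in NotoPdiff and 13.1 in MPdiff. Nanog was listed at 0 in the same 4 libraries and was at 21.8 in NMPdiff, 1.54 in NotoPdiff and 0.216 in MPdiff. Both were thus higher in NMPdiff, which is harvested earlier, than in NotoPdiff. Of 12 pluripotency genes that met the minimum, Nanog not among them, 3 were higher and 0 lower, with a median of 1.14 (0.77 over the 9 genes listed above 0, of which 1 was called). The homeobox gene Rhox5, which is silenced by DNA methylation in the embryo proper, was listed at 0 in the 4 embryonic notochord libraries, and at 16.4 in NMPdiff, 8.15 in NotoPdiff, 14.9 in MPdiff and 16.2 and 2.86 in E8.5 and E9.5 MPs. The cell cycle inhibitor Cdkn2a was listed at 0 in all 6 embryonic libraries and was at 4.84, 9.87 and 4.68 in NMPdiff, NotoPdiff and MPdiff. Ass1, an enzyme of arginine synthesis, was at or near 0 in all 6 embryonic libraries and was at 23.8, 10.6 and 5.17. Cdkn2a and Ass1 thus had signal in each culture and were at or near 0 in every embryonic library.

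Of the further genes of this class named here, Cldn6, Dcpp3 and Rprl3 were highest in NotoPdiff among the cultures. All but Dcpp3 had signal in all 3 cultures. Cldn6, a tight junction claudin of early epithelia and endoderm, was at 29.2 and 26.8 FPKM in trunk, 47.0 and 23.9 in NotoPs, 17.4 in NMPdiff, 126 in NotoPdiff and 3.38 in MPdiff (2.07 and 2.19). Dcpp3 was listed at 0 in all 6 embryonic libraries and in NMPdiff, and was at 12.2 in NotoPdiff and 0.0713 in MPdiff; it has near copies, so its level is uncertain. The transcript BC018473 was at 16.9 in NotoPdiff, 17.7 in NMPdiff and 9.63 in MPdiff against 0.867 and 0 in NotoPs and 0 in both trunk libraries. The small RNA genes Rnu73b and Rprl3 led this class by ratio, and 36 of its 91 genes were small RNA genes. Of all 23983 genes, 1237 were small RNA genes, and 1123 of these were listed at 0 in NotoPdiff. Their share among the genes that met the minimum was not computed, so the 36 have no background to be read against. Rnu73b was at 312 in NMPdiff, 287 in NotoPdiff and 181 in MPdiff, and listed at 0 in all 6 embryonic libraries. Rprl3 was at 238 in NMPdiff, 422 in NotoPdiff and 320 in MPdiff, against 0 and 10.0 in trunk. All 3 cultures had the higher small RNA share.

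Sterol and p53 genes leaned the same way. Of 23 cholesterol synthesis genes that met the minimum 7 were higher and 0 lower, 3 of the 7 not shared, 3 shared and 1 shared at 1 stage. The list median was 1.62 in NotoPdiff against 0.35 in NotoPs, and MPdiff had 1.05 against embryonic MPs. Summed FPKM of the list was 269 and 347 in trunk, 344 and 380 in NotoPs, 922 in NotoPdiff, 1235 in NMPdiff and 1160 in MPdiff. The methyl sterol oxidase Msmo1 was at 13.3 and 18.2 in trunk, 9.31 and 12.7 in NotoPs, 70.1 in NotoPdiff and 87.0 in MPdiff (2.32 and 1.88). Hsd17b7, a sterol reductase of the same pathway, was shared, at 1.44 and 1.56 in trunk, 10.7 and 9.86 in NotoPs and 33.6 in NotoPdiff (3.83 and 3.76). Of 16 p53 targets 7 were higher and 0 lower, 6 shared at 1 stage and 1 not shared, with a median of 1.86 (NotoPs 0.58, MPdiff against MPs 1.45). The cell cycle inhibitor Cdkn1a was at 2.30 and 12.4 in trunk, 7.41 and 8.43 in NotoPs, 43.0 in NotoPdiff and 55.9 in NMPdiff (3.74 and 1.71). The apoptosis gene Pmaip1 was at 0.829 and 0.896 in trunk, 0.711 and 3.88 in NotoPs and 20.2 in NotoPdiff (3.53 and 3.48). Ccng1, a cyclin G, was at 20.8 and 13.0 in trunk, 22.4 and 45.4 in NotoPs and 135 in NotoPdiff (2.64 and 3.28). All 3 were higher in NotoPdiff and in NMPdiff than in any of the 4 embryonic notochord libraries. The cell cycle lists themselves had medians of -0.14 and -0.25, which turned to 0.36 and 0.27 after upper-quartile scaling: of 24 genes of G1 and S phase, Cdkn1a and Cdkn2a were the 2 higher ones, and of 25 genes of G2 and M phase 0 were called.

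Among the 33 lower genes not shared were several that mature collagen and elastic fibres. Mfap2, a microfibril protein, was at 16.3 and 50.6 FPKM in trunk, 34.1 and 25.6 in NotoPs, 0.53 in NMPdiff, 0.42 in NotoPdiff and 0.54 in MPdiff (-3.61 and -5.19). The lysyl oxidase Loxl2, which cross-links collagen, was at 33.5 and 22.0 in trunk, 36.8 and 46.7 in NotoPs, 1.68 in NMPdiff, 1.47 in NotoPdiff and 1.52 in MPdiff (-3.81 and -3.22). P4ha1, a prolyl hydroxylase of collagen and a target of hypoxia, was at 64.7 and 54.7 in trunk, 71.1 and 58.8 in NotoPs, 9.17 in NMPdiff, 8.57 in NotoPdiff and 8.38 in MPdiff (-2.78 and -2.54). In each of these 3 genes all 3 cultures lay below all 4 embryonic notochord libraries, and no NotoP library was 2-fold below trunk of its stage. Embryonic MPs had 12.0 and 29.2 FPKM of Mfap2, 27.5 and 27.4 of Loxl2, and 70.0 and 32.6 of P4ha1, so MPdiff was lower there as well. Fibrillin Fbn2 (60.7 and 76.4 in trunk, 33.7 and 43.3 in NotoPs, 6.71 in NotoPdiff) and the lysyl hydroxylase Plod2 (105 and 93.2 in trunk, 80.9 and 62.7 in NotoPs, 19.9 in NotoPdiff) were likewise lowest in NotoPdiff of these 5 libraries, and were named after their values were seen. No summit of T or Foxa2 lay within 50 kb of the start sites of Loxl2 or P4ha1.

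The other leading genes of this class had lower levels. Plet1, a surface protein of epithelia, was at 17.9 and 14.2 FPKM in trunk, 9.20 and 9.42 in NotoPs and 0.03 in NotoPdiff (-4.20 and -3.89). Slc43a3, a purine transporter, was at 11.8 and 11.9 in trunk, 9.43 and 14.4 in NotoPs and 0.28 in NotoPdiff (-3.33 and -3.33). Pcp4, a calmodulin regulator, was at 10.3 and 14.8 in trunk, 8.83 and 91.4 in NotoPs and listed at 0 in NotoPdiff. Rn45s, the ribosomal RNA precursor, was at 18506 to 22382 FPKM in the 6 embryonic libraries and listed at 0 in the 3 cultured ones, a difference that follows the source of the libraries.

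Hypoxia and glycolysis genes were mostly within 3-fold of trunk. Of 14 hypoxia response genes that met the minimum 2 were lower (P4ha1 and Ankrd37) and 0 higher. The median was -1.09 in NotoPdiff, whereas NotoPs had 0.76, and MPdiff had -0.75 against embryonic MPs. Summed FPKM was 510 and 461 in trunk, 1115 and 700 in NotoPs, 248 in NotoPdiff, 243 in NMPdiff and 179 in MPdiff. Bnip3, a mitophagy receptor and hypoxia target named after its values were seen, was at 104 and 50.1 in trunk, 358 and 156 in NotoPs and 19.3 in NotoPdiff. Of 18 glycolysis genes 0 were called, with medians of -0.61 in NotoPdiff (-0.08 after upper-quartile scaling), 0.78 in NotoPs and -1.12 in MPdiff against MPs.

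Hox levels placed NotoPdiff near the E8.5 trunk. Of 39 Hox genes, Hoxb1 alone was a member, at 7.41 and 1.14 FPKM in trunk, 47.2 and 44.3 in NotoPs and 28.0 in NotoPdiff (1.79 and 3.76). The 12 genes of paralogue groups 1 to 4 summed to 81.2 and 120 in trunk, 195 and 232 in NotoPs, 81.0 in NotoPdiff and 246 in MPdiff. The 15 genes of groups 5 to 9 summed to 20.9 and 78.4 in trunk, 152 and 316 in NotoPs, 17.6 in NotoPdiff and 70.1 in MPdiff. The 12 genes of groups 10 to 13 summed to 0.858 and 3.81 in trunk, 1.68 and 200 in NotoPs and 0.665 in NotoPdiff. NotoPdiff was thus below both NotoP libraries in every group of paralogues, and only 7 of the 39 genes met the FPKM minimum.

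**Figure D4:**
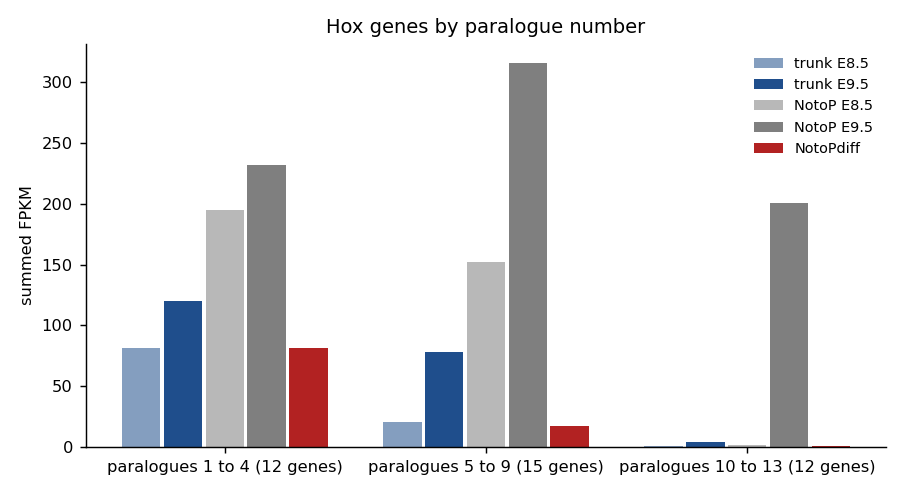
Summed FPKM of Hox genes in 3 groups of paralogues for the 5 notochord lineage libraries, with 1 bar per library. NotoPdiff, at 81.0, 17.6 and 0.665, stands near the E8.5 trunk library and below both NotoP libraries.

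Markers of other cell types that a sort could hold were mostly low in NotoPdiff. The 8 neural tube markers summed to 114 and 71.5 FPKM in trunk, 39.9 and 31.4 in NotoPs and 13.4 in NotoPdiff, and Irx3, at 64.6 and 53.6 in trunk and 2.34 in NotoPdiff, was a lower shared gene. The 8 visceral endoderm and yolk sac markers summed to 61.6 and 139 in trunk, 6.07 and 14.4 in NotoPs and 0.914 in NotoPdiff. Of these, the plasma carrier Ttr (36.0 and 23.4 in trunk) and the apolipoprotein Apoa1 (6.68 and 12.0 in trunk) were members, and both were listed at 0 in NotoPs and NotoPdiff. The 8 fibroblast markers summed to 44.0 and 36.6 in trunk, 9.88 and 7.15 in NotoPs and 3.39 in NotoPdiff, where Col1a2 was a lower shared gene. The 8 somite and sclerotome markers summed to 49.5 and 37.4 in trunk and 10.4 in NotoPdiff, and the 8 endothelial markers to 6.31 and 1.67 in trunk and 5.88 in NotoPdiff, while lateral mesoderm markers summed to 20.5 and 20.6 in trunk and 6.64 in NotoPdiff. The trunk libraries thus held more summed FPKM of neural tube, yolk sac and fibroblast markers than NotoPdiff did. Of the 8 markers in each of these lists, 2, 2 and 1 met the minimum. Yolk sac markers summed to 117 and 1.71 in E8.5 and E9.5 MPs. The part of such cells in the lower shared genes was not tested. The 8 gut endoderm markers summed to 101 and 57.8 in trunk, 56.5 and 25.7 in NotoPs and 138 in NotoPdiff, most of it Cldn6. Sox17, a defining endoderm factor, was at 0 and 0 in trunk, 3.58 and 0 in NotoPs and 7.46 in NotoPdiff.

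Some pairs of genes cannot be read singly. Amd1 was at 0.13 and 0.68 FPKM in trunk and 78.7 in NotoPdiff, while its near-identical copy Amd2 was at 59.0 and 52.9 in trunk and 1.05 in NotoPdiff. The same exchange was seen between the NotoP libraries, with Amd1 at 0.55 and 80.3 and Amd2 at 60.5 and 0.01. Both genes are members, and the quantification may have assigned shared reads to either copy.

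Binding of T and Foxa2 in the NotoPdiff cultures was a readout the rule did not use. The ChIP-seq libraries held 6875 T peaks and 22684 Foxa2 peaks, and 492 of the 502 members and 8761 of the 8805 genes could be placed on the genome. A T summit lay within 50 kb of the start site of 32.9% of all placed genes. It did so for 55.4% of the 121 higher shared genes (67 genes), 35.2% of the 88 higher genes not shared, 42.4% of the 125 lower shared genes and 43.8% of the 32 lower genes not shared. Foxa2 summits were near 60.8% of all placed genes and 65.3%, 65.9%, 69.6% and 59.4% of these classes. Both factors were near 39.7%, 22.7%, 35.2% and 31.25% of these classes in the same order, against 22.5% of all. At this distance the T share was thus highest for the higher shared genes among these classes, while the Foxa2 shares lay closer to that of all genes. Within 5 kb, the T shares were 16.5%, 11.4%, 9.60% and 21.9% (7 of 32 genes) against 8.74%, and the Foxa2 shares 24.0%, 14.8%, 17.6% and 15.6% against 12.5%. The ChIP-seq cultures were not sorted and have 1 library per factor, and no trunk ChIP-seq was analysed here. A summit near a start site does not assign it to that gene.

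**Figure D5:**
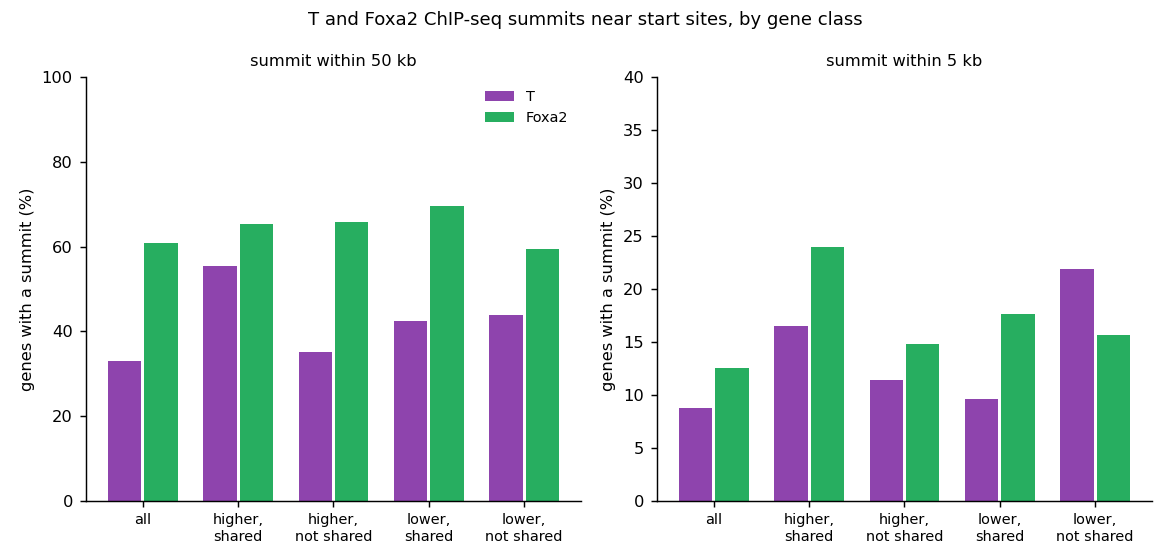
Share of placed genes (y axis, percent) with a T or a Foxa2 summit within 50 kb (left) and within 5 kb (right) of the start site, for all genes that met the minimum and for 4 classes. Within 50 kb the T bar of the higher shared genes, 55.4%, is the tallest of the T bars, against 32.9% for all genes.

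RefSeq promoters on GRCm38 (250 bases before to 50 after the start) matched 6658 of the 8805 genes. The T-box word was in 13.3% of the 90 higher shared promoters that matched, in 8.42% of the 95 lower shared ones and in 7.49% of all 6658. A forkhead word was in 11.1%, 7.37% and 8.01%. These are 12 and 8 promoters for the T-box word and 10 and 7 for the forkhead word. Of the promoters of genes not shared, 4 of 41 higher ones (9.76%) and 4 of 19 lower ones (21.1%) held the T-box word, and the counts were the same for the forkhead word.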

How the data were processed

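RNA-seq libraries of 9 conditions and ChIP-seq peak lists of T and Foxa2 in NotoPdiff cultures were used, and 10 further samples of the series were not used here. The deposited RNA table held FPKM values that the authors made by trimming the first 5 bases of each read, aligning with TopHat2 2.1.1 and Bowtie 1.2.2 to mm10 with RefSeq genes, removing duplicates by unique molecular identifiers and quantifying with Cufflinks 2.2.1. The kit keeps strand. FPKM values keep no counts, so no interval for counting error is given. By the study's sequencing statistics both trunk libraries had fewer de-duplicated reads than either NotoP library. The peak lists deposited by the authors were made with Bowtie 1.3.1 and MACS3 3.0.0b1 at a q cutoff of 0.1, 1 library per factor; control libraries are not named in the sources used here. As deposited by the authors, the fold enrichment of a peak is the ratio of its summit to the local background that MACS3 computed. The −log10 values of p and q were computed by MACS3 and deposited by the authors with each peak. The score column was deposited by the authors as MACS3 rounded it from the q value.

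Ratios were log2 of (FPKM + 1) over (FPKM + 1), with the minimum of 5 FPKM, the 3-fold limit against both trunk libraries and the 2-fold limit for embryonic NotoPs. With 1 library per condition no test was made. Summits were placed with GENCODE gene starts on GRCm38 (mm10) in windows of 50 kb, and 6871 of 6875 T and 22680 of 22684 Foxa2 peaks lay on primary chromosomes. Symbols that matched no annotated gene were left out of the placed genes. Named genes were the 6 with the largest smaller ratio in each of the 4 shared and not shared classes, leaving out symbols that begin with Mir, Snor, Scarna, Hist, LOC, Rpl or Rps, or with Gm and a digit, pseudogene symbols and those ending in Rik (so that small RNA genes with other symbols and Rn45s stayed in), up to 4 called genes per list, the Hox genes, and T, Noto, Foxa2, Foxa1, Shh, Chrd, Nog, Sox9 and Col2a1. Further genes are said to be named after their values were seen, or stand among the called genes of a list. The members and the gene lists were chosen with earlier results of these data known. The classification was tested on simulated data with known fold changes. Tables were computed in Python 3.11.15 with pandas 2.3.3 and numpy 2.4.6, and figures were drawn with matplotlib 3.10.9.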

Additional observations from a re-analysis of the deposited data

Results flagged for a closer look

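The direction of the difference from trunk was opposite between the E8.5 and E9.5 trunk libraries for 16 genes that met the FPKM minimum: NotoPdiff was at least 3-fold higher than 1 trunk library and at least 3-fold lower than the other. The difference was not tested. The retinoic acid binding protein Crabp2 was listed at 0 in E8.5 trunk, at 79.2 FPKM in E9.5 trunk and at 5.41 in NotoPdiff. Prelid2 was at 30.4 in E8.5 trunk, listed at 0 in E9.5 trunk and at 5.45 in NotoPdiff, and was at 23.4 and 37.4 in NotoPs. Tsr3, a ribosome assembly factor, was listed at 0 in E8.5 trunk, at 55.8 in E9.5 trunk and at 10.7 in NotoPdiff. Genes named here were chosen after their values were seen.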

How the results depend on the processing

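Most counts depended on the settings. Values are given in the order higher, lower, higher shared, lower shared, higher not shared and lower not shared (288, 214, 123, 128, 91 and 33 as reported). A pseudocount of 5 gave 116, 84, 32, 54, 54 and 17. A limit of 2-fold gave 560, 468, 199, 188, 177 and 135, and 5-fold gave 148, 102, 65, 75, 53 and 11. Against E8.5 trunk alone the counts were 561, 532, 355, 392, 206 and 140, and against E9.5 trunk alone 875, 756, 644, 571, 231 and 185; here 5 FPKM in NotoPdiff or in that 1 trunk library let a gene enter and sharing was read at that stage only. On the same 8805 genes as reported, 317 were lower than E8.5 trunk and 441 lower than E9.5 trunk. A minimum of 1 FPKM, or none, gave 515 higher, 194 higher shared and 172 higher not shared genes, and a minimum of 10 FPKM 139 lower, 80 higher shared and 85 lower shared ones. Upper-quartile scaling gave 572, 135, 222, 94, 175 and 17. Keeping only genes above 0 in NotoPdiff and both trunk libraries gave 120 higher genes, 55 of them shared and 37 not shared; called presomitic genes then went from 7 to 1, caudal genes from 9 to 2, left-right genes from 3 to 0, paraxial progenitor markers from 6 to 0 and pluripotency genes from 3 to 1. An embryonic limit of 1.5-fold gave 19 lower genes not shared, and 3-fold gave 76 higher shared and 56 lower genes not shared. Leaving out small RNA, histone and Rn45s genes, a setting chosen after seeing the data, left 54 higher genes not shared. Counts with a pseudocount of 0.1 and with median-of-ratios scaling stayed within 1.5 times of those reported. The share of placed members with a T or Foxa2 summit was 77.8% within 50 kb, 50.8% within 20 kb and 25% within 5 kb. Where a count differed, the cause was not tested beyond the setting's own construction. After upper-quartile scaling, 11 named lower genes came under 3-fold (Slit2, Cdon, Fras1, Krt19, Cldn10, Gdf1, Myc, Peg3, Crabp1, Ctgf and Gpx3). No paired analysis was possible because each group has 1 sample. The FPKM values keep no counts, so the precision of low values and zeros could not be computed.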
